A study of Mus musculus with 120 samples.

Results

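Leukocytes of the mouse liver were sorted by the surface protein CD45 and profiled as single cells, and the cells of mice kept on a normal diet (ND) for 2 weeks were compared with those of mice kept on it for 8 weeks. All these mice carried the strain label c57bl, and no genotype change, infection or agent is named for either week. The cells were taken by the plate map: a well of a 384-well plate entered where the map listed 1 cell and the plate's label named liver CD45+ cells on ND at week 2 or week 8. This gave 7220 cells on 19 plates, of 44840 cells on 118 plates in the whole series. Week 2 had 9 plates and week 8 had 10, each with 380 cell wells and 4 wells listed as empty. The labels give no age or sex, and they tie no plate to an animal. The p-values therefore reflect only how far plates of a week scattered, and that scatter may be technical.

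CD45 is a phosphatase found on the surface of all white blood cells, so this sort takes every kind of leukocyte in the liver. These include Kupffer cells, the resident macrophages that clear particles from the portal blood, together with monocytes, neutrophils, dendritic cells, natural killer cells, T cells and B cells. Small resting lymphocytes usually give fewer detected genes in single-cell libraries than macrophages or dendritic cells do. The number of genes in a well also rises with how deeply its library was sequenced and with how well its RNA was captured. In the study, mice on ND were the controls of mice fed a diet without methionine and choline (MCDD), a feeding model of steatohepatitis.

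Each well carried 2 numbers in the files used here, the genes detected and a total count. No gene was named, so the sorted identity could not be checked against marker genes and the mix of cell types at each week was not analysed here. Fewer genes per cell and another mix of cells cannot be told apart in these values. Both weeks were sequenced in several runs, called sequencing batches. Only batch SB12, with 1 plate of week 2 and 2 of week 8, and batch SB16, with 4 plates of each week, held both weeks. These 11 plates carry the comparison. The plate is the replicate, and a difference is given as the log2 of week 8 over week 2, averaged over the 2 batches by their number of plates, with its standard error (SE). It was tested with a two-sided exact permutation test of the week labels within batch, for which the smallest possible p was 0.00476.

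Over all plates of both weeks the depth overlapped. The total summed over the cell wells of a plate lay between 7727125 and 26207921 at week 2 and between 9283471 and 28255146 at week 8. In SB12 and SB16, the batches compared, this sum was 9283471 to 16573027 at week 8. There the week 2 plate 1.1 had 7727125. All other week 2 plates of these batches lay above every week 8 plate, at 21929171 to 26207921. The summed total was not tested. The 4 deepest wells of a plate held 6.87% to 20.3% of its total. The plate median of the total per well lay between 12098 and 46293.5, and the lowest was the week 2 plate numbered 1.1 in SB16. The 4 empty wells of a plate had a median of 17.5 to 38 genes on 8 of the 9 week 2 plates and of 13 to 33.5 genes on the 10 week 8 plates. The median total of the empty wells in SB12 and SB16 differed by -1.50 ± 0.73 SE (log2, week 8 minus week 2). That difference did not pass (exact permutation test, adjusted p = 0.179 over 5 measures). On the week 2 plate numbered 2.2 the wells listed as empty had a median of 643.5 genes. That plate was left out for the 10th percentile, median and 90th percentile of genes and for the width of their distribution. The same was done for genes at matched total, the median total and the difference between diets in width. For these, results are given without it where a call or a sign changed. The shares of wells, the bands of total, the further percentiles and the other differences between diets were not run without that plate. Without it the median of genes still passed at -0.81 and the 90th percentile at -0.93 (log2 differences, exact permutation test, adjusted p = 0.0143 for both).

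Every plate used the same barcode oligo at the same position, and 2 of the 380 positions were in the lowest 10% of wells by genes on all 19 plates. Their cell barcodes are shown because these wells were counted as cells at both weeks while holding almost no genes.
Well D9: gacctgt
Well E10: cgcaatc
Well D9 had 5 to 26 genes at week 2 and 1 to 13 at week 8. Well E10 had 4 to 22 genes at week 2 and 6 to 27 at week 8. Position and barcode cannot be told apart, since each barcode kept its place. No other position lay in the lowest 10% on every plate.

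The middle of the distribution was lower at week 8. In SB16 the plates numbered 1.1, 1.2, 2.1 and 2.2 had medians of 381, 593.5, 507 and 458 genes at week 2. The week 8 plates with these numbers had 340.5, 266, 352 and 237 genes. In SB12 the week 2 plate had a median of 355.5 genes, and the 2 week 8 plates had 192.5 and 158.5. All week 8 plates lay below all week 2 plates of their batch, although 352 and 355.5 in different batches nearly met. The median at week 8 was lower by -0.79 ± 0.16 SE on the log2 scale, and it passed the exact permutation test over the 10th percentile, median and 90th percentile together (adjusted p = 0.00714, 5 against 6 plates).

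The richest cells of a plate were lower at week 8 as well. The 90th percentile of a plate is the number of genes that the richest 10% of its cells reached. In SB16 it was 1127, 1391, 1279 and 1234 genes at week 2, and 818.5, 622, 993.7 and 563.2 at week 8, in the same order of plate numbers. In SB12 it was 1117 genes at week 2 and 513.3 and 429.8 at week 8. The highest week 8 plate stayed below the lowest week 2 plate, so the groups did not overlap. The difference was -0.91 ± 0.16 SE on the log2 scale, a 1.88-fold lower value at week 8 (exact permutation test, adjusted p = 0.00714, 5 against 6 plates).

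At the poor end the plates scattered and no call was made. The 10th percentile in SB16 was 141.6, 179.3, 137.5 and 61.0 genes at week 2, and 63.0, 65.9, 62.0 and 50.0 at week 8. In SB12 it was 37.9 genes at week 2 and 43.9 and 31.9 at week 8. The week 2 plates 2.2 in SB16 and 2.6 in SB12 lay among the week 8 plates, while the other 3 week 2 plates were above all of them. The log2 difference was -0.74 ± 0.29 SE and did not pass (exact permutation test, adjusted p = 0.0667, 5 against 6 plates). The batches differed at this percentile, with -1.01 in SB16 and -0.02 in SB12. Without the week 2 plate 2.2, whose empty wells held genes, the difference was -0.94 and passed (exact permutation test, adjusted p = 0.0190).

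**Figure D1:**
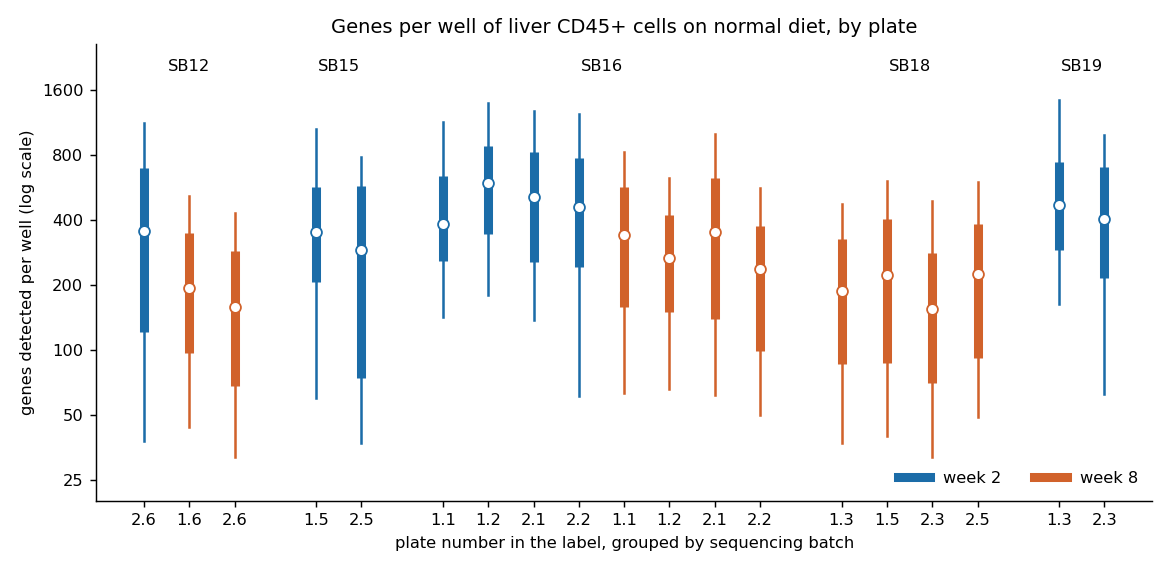
Genes per well on each of the 19 plates, on a log axis, grouped by sequencing batch. The circle is the median, the thick bar spans the 25th to 75th percentile and the thin line the 10th to 90th, over 380 cell wells. In SB12 and SB16 every week 8 median lies below every week 2 median of its batch, while the lower ends of the lines overlap.

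At 4 further percentiles the differences had the same sign. They were -0.52 ± 0.30 at the 5th, -0.89 ± 0.18 at the 25th, -0.80 ± 0.17 at the 75th and -0.91 ± 0.15 at the 95th percentile (log2 difference ± SE). Adjusted over the 7 percentiles, those from the 25th to the 95th passed the exact permutation test, at 0.0133 for the 25th and 0.00833 for the other 4. The 5th and 10th did not pass (adjusted p = 0.105 and 0.0778).

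Whether the poor and the rich end moved by unequal amounts was tested on the width of the distribution, the 90th over the 10th percentile of a plate. This ratio was 7.76 to 9.30 on 3 of the week 2 plates in SB16, 20.2 on the week 2 plate 2.2 and 29.5 on the week 2 plate 2.6 in SB12. On the 6 week 8 plates it was 9.44 to 16.0. Week 2 thus held both the narrowest and the widest plates. The log2 difference in width was -0.17 ± 0.29 SE and did not pass (exact permutation test, p = 0.657, 5 against 6 plates). Its sign depended on the batch, at 0.23 in SB16 and -1.23 in SB12, and it turned to 0.02 without the week 2 plate 2.2. Unequal movement of the 2 ends was therefore not detectable with these plates.

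The total count per well did not pass at any percentile. Its log2 difference was -0.40 ± 0.36 SE at the 10th percentile, -0.34 ± 0.38 at the median and -0.71 ± 0.33 at the 90th percentile (exact permutation test, adjusted p = 0.310, 0.310 and 0.171). In SB16 the plate medians of the total were 12098, 37651, 39539 and 29463.5 at week 2 and 26219, 17489.5, 14380 and 30746 at week 8, so the weeks overlapped fully. At the median the SE of the total was larger than its difference, so a lower total at week 8 was not detectable with these plates, and these values do not show that the totals were alike. Without the week 2 plate 1.1, the plate of lowest total, the difference at the median was -0.61 ± 0.25 SE (exact permutation test, p = 0.0381, adjusted p = 0.0571). Without the week 2 plate 2.1 or the week 8 plate 2.1 it was -0.21.

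**Figure D2:**
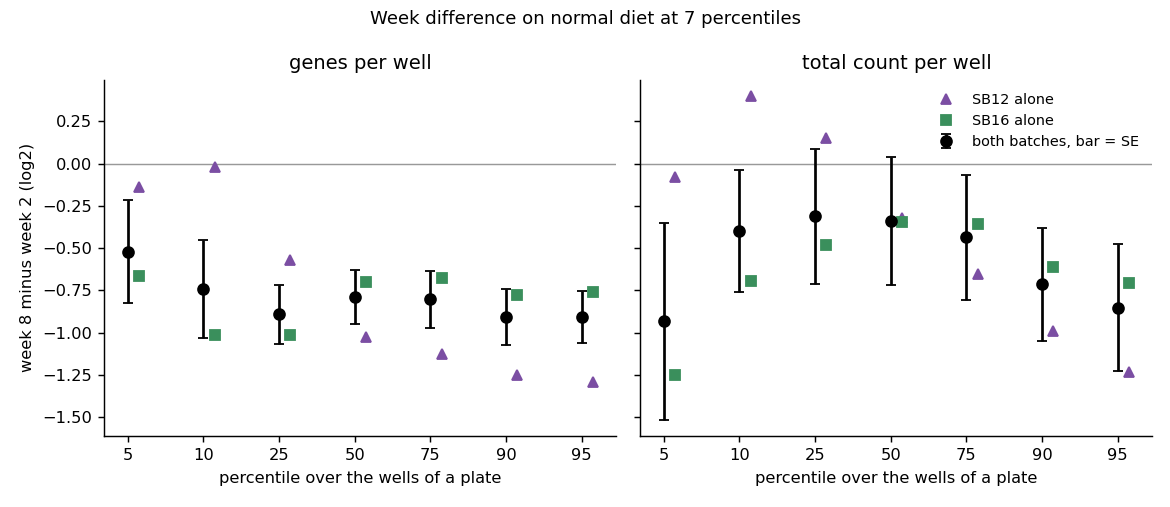
Log2 difference of week 8 minus week 2 at 7 percentiles over the wells of a plate, for genes (left) and the total count (right). Black points average both batches and their bars are the SE; triangles and squares give SB12 and SB16 alone. For genes both batches lie below 0 at every percentile, nearest to it in SB12 at the 10th with -0.02.

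The distribution was also read as the share of a plate's cells above a number of genes, which needs no percentile. Cells with at least 1000 genes made up 16.1% ± 3.6 of wells at week 2 and 3.51% ± 3.75 at week 8 (SD, n = 5 and 6 plates in SB12 and SB16). At week 2 the 5 plates held 47, 49, 80, 68 and 62 such cells of 380. At week 8 the 6 plates held 5, 2, 22, 11, 38 and 2. The richest week 8 plate, numbered 2.1 in SB16, stayed below the poorest week 2 plate. The difference within batches was -12.0 percentage points ± 2.1 SE (exact permutation test, adjusted p = 0.00794 over 5 thresholds).

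At 500 genes the share was 46.0% ± 9.0 at week 2 and 18.7% ± 11.8 at week 8 (SD, n = 5 and 6 plates), a difference of -25.5 points ± 5.7 SE within batches. At 200 genes it was 80.4% ± 8.5 and 57.9% ± 10.8, a difference of -20.0 points ± 2.8 SE. Both passed the exact permutation test with an adjusted p of 0.00794. At 100 genes the difference was -10.2 points ± 2.5 SE (adjusted p = 0.0119). At 50 genes the shares were 94.1% ± 5.2 and 89.8% ± 5.0 (SD, n = 5 and 6 plates), and the difference of -3.06 points ± 1.84 SE did not pass (exact permutation test, adjusted p = 0.114).

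**Figure D3:**
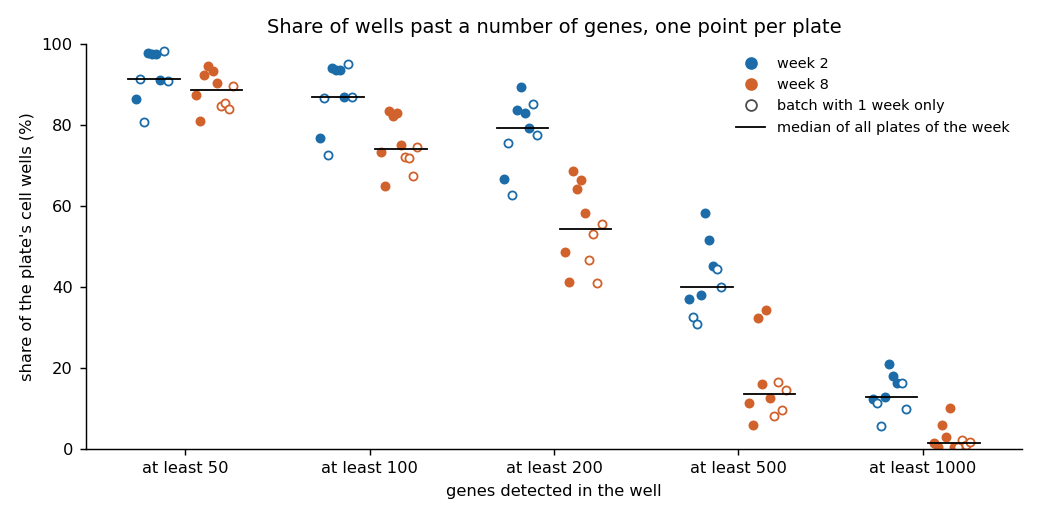
Share of a plate's 380 cell wells with at least 50, 100, 200, 500 and 1000 genes. Each point is a plate, filled where its batch held both weeks, and the line is the median of all 9 plates of week 2 or 10 plates of week 8. The weeks lie close at 50 genes and part at 500 and 1000 genes, where no filled week 8 point reaches a filled week 2 point.

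Since genes rise with the total, wells of the same total were then compared. Wells were placed in bins of log2 total of width 0.5, and a plate's mean log2(genes + 1) was averaged over the bins in which every plate of its batch had at least 5 wells. These bins held 3384 of the 4180 wells. As a geometric mean of genes over these bins, the SB12 plates gave 231 genes at week 2 and 164 and 145 at week 8. In SB16 the plates 1.1, 1.2, 2.1 and 2.2 gave 600, 357, 296 and 307 genes at week 2, and 276, 279, 438 and 156 at week 8. The week 8 plate 2.1 lay among the week 2 plates, and the remaining 3 week 8 plates of SB16 lay below them.

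At matched total the log2 difference was -0.50 ± 0.31 SE and did not pass (exact permutation test, p = 0.119, 5 against 6 plates). The sign was the same in both batches, at -0.58 in SB12 and -0.47 in SB16. Single plates moved it either way. Without the week 8 plate 2.1 it was -0.66 and passed (exact permutation test, p = 0.00952). Without the week 8 plate 2.2 it was -0.32, and without the week 2 plate 1.1 it was -0.34, and neither passed (exact permutation test, p = 0.229 and 0.257). Restricting wells to the middle of their batch's totals, from the 25th to the 75th percentile, gave -0.62 (exact permutation test, p = 0.0333), while bins of width 1 gave -0.40 (p = 0.190).

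In SB16 the lowest plate medians of the total, 12098 and 14380, belonged to the week 2 plate 1.1 and the week 8 plate 2.1, which gave the highest matched values of their weeks in that batch. In SB12 the order was the opposite, with plate medians of the total of 26554.5, 21817.5 and 20716.5 beside 231, 164 and 145 genes. A fit with the plate median of the total as a covariate beside week and batch was added after these values had been seen. It had a slope of -0.70 ± 0.16 SE per log2 unit of the total. The same slope was set for both batches, although the order in SB12 was the opposite. In that fit the difference at matched total was -0.73 ± 0.17 SE (exact permutation test of the week labels, p = 0.0143). The same covariate left the median number of genes at -0.73 ± 0.17 SE and the 90th percentile at -0.91 ± 0.19 SE (exact permutation test, adjusted p = 0.0143 for both). For the 90th percentile the slope on the plate median of the total was -0.03 ± 0.18 SE. The total at the 90th percentile was not used as a covariate, so this fit does not adjust for depth at the rich end.

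In bands of total 1 log2 unit wide, the lowest band, 4096 to 8192, gave plate medians of 68 to 258 genes at week 2 and 53 to 166 at week 8. The log2 difference there was -0.14 ± 0.36 SE. Between 16384 and 32768 the plate medians were 322 to 638 genes at week 2 and 167 to 471 at week 8, with a difference of -0.62 ± 0.27 SE. In the highest band, 65536 to 131072, they were 794 to 1504 and 421 to 1307 genes, with a difference of -0.51 ± 0.26 SE. None of the 5 bands passed (exact permutation test, adjusted p = 0.671 in the lowest band and 0.111 to 0.125 in the other 4). Unadjusted, only the highest band was under 0.05 (exact permutation test, p = 0.0476).

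**Figure D4:**
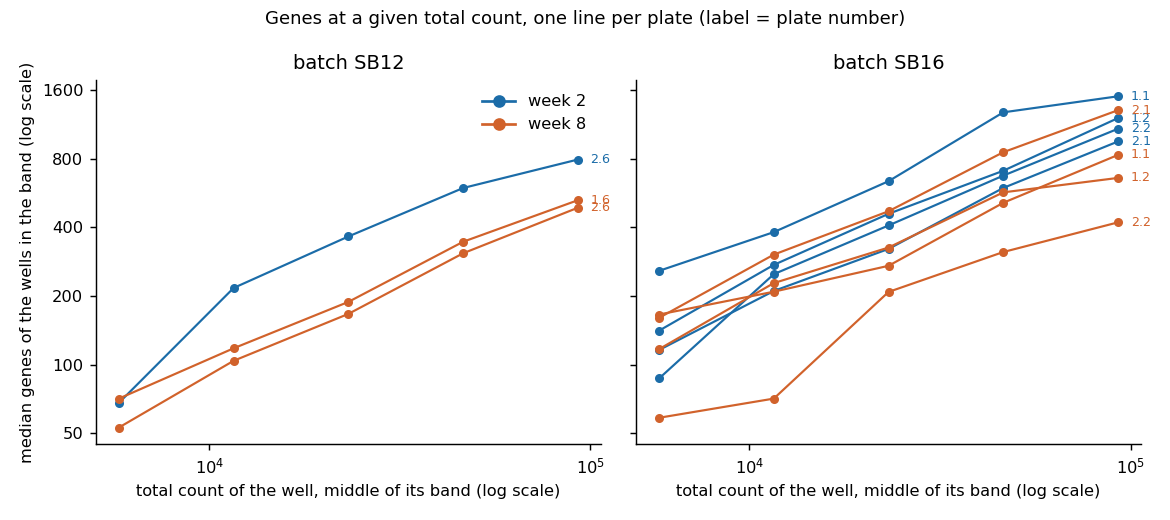
Median genes of the wells in 5 bands of total count, with 1 line per plate and both axes on a log scale, for batch SB12 (left) and SB16 (right). Both SB12 lines of week 8 lie below the week 2 line from the second band upwards. In SB16 the week 8 plate 2.1 runs among the week 2 plates and the week 2 plate 1.1 runs above all others.

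The remaining plates came from batches that held 1 of the weeks, so their week and batch cannot be told apart. The 4 week 8 plates of SB18 had medians of 155 to 224 genes, at plate median totals of 17512 to 46293.5. The 4 week 2 plates of SB15 and SB19 had medians of 290.5 to 465.5 genes, at plate median totals of 23313.5 to 38102.5. Over all 19 plates the median per plate ranged from 290.5 to 593.5 genes at week 2 and from 155 to 352 at week 8, and the 90th percentile from 779 to 1435 and from 429.8 to 993.7.

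Week 4 on ND shared batches SB15 and SB19 with 4 week 2 plates, none of which entered the comparison above. Against these, 8 week 4 plates differed by 0.27 ± 0.27 SE at the 10th percentile, -0.07 ± 0.10 at the median and -0.20 ± 0.14 at the 90th percentile of genes. None of these 3 passed (exact permutation test, adjusted p = 0.571 for each), and at matched total the difference was -0.16 ± 0.15 SE (p = 0.345). Whether week 8 differed from week 2 by more than week 4 did was not tested, since weeks 4 and 8 shared no batch.

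On MCDD, week 8 against week 2 in the same 2 batches gave -1.63 ± 0.25 SE at the 10th percentile, -1.05 ± 0.13 at the median and -0.53 ± 0.17 at the 90th percentile (6 against 6 plates). Each of these passed, the 10th percentile included (exact permutation test of the week labels, adjusted p = 0.00714, 0.00714 and 0.00952). The difference between diets in this week effect was tested by permuting the diet labels within batch and week. It was 0.89 ± 0.38 SE at the 10th percentile, 0.26 ± 0.21 at the median, -0.38 ± 0.23 at the 90th percentile and 0.10 ± 0.36 at matched total, ND minus MCDD. Both diets were matched here in the bins that every plate of both diets filled, where the difference on ND was -0.54 ± 0.31 SE. On MCDD the difference at matched total in these bins was -0.64 ± 0.18 SE and passed (exact permutation test of the week labels, p = 0.0238). None of the 4 differences between diets passed (permutation test of the diet labels, adjusted p = 0.148, 0.327, 0.231 and 0.805). Such relabelling takes the diets to be alike at each week, so its p is exact only if diet had no effect at either week.

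For the width of the distribution the change from week 2 to week 8 was lower on ND than on MCDD. On MCDD the ratio of the 90th to the 10th percentile was 5.75 to 11.9 at week 2 and 10.8 to 32.4 at week 8, a log2 difference of 1.10 ± 0.29 SE. On ND the difference was -0.17 ± 0.29 SE, as given above. The mean log2 width was 3.68 on ND and 2.97 on MCDD at week 2, and 3.62 and 4.07 at week 8. The diets thus lay apart in their means at week 2 already, which was not tested. For the change, ND minus MCDD was -1.27 ± 0.41 SE (permutation test of the diet labels, p = 0.00431, adjusted p = 0.0215 over all 5 differences between diets). This test has the same limit on its p as the 4 above, and it was added after the values had been seen. The difference was -2.15 in SB12 and -0.96 in SB16. Without the week 2 ND plate 2.6, the only one in SB12, it was -0.96 and did not pass (permutation test of the diet labels, p = 0.0690).

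**Figure D5:**
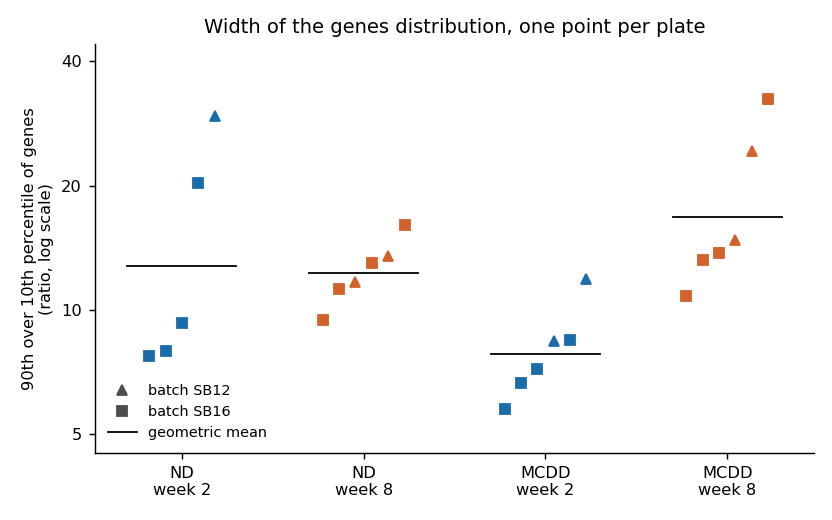
Ratio of the 90th to the 10th percentile of genes on each plate of SB12 (triangles) and SB16 (squares), on a log axis, by diet and week. The line is the geometric mean. On ND the 6 week 8 plates (9.44 to 16.0) lie within the range of the 5 week 2 plates (7.76 to 29.5), while on MCDD 5 of the 6 week 8 plates lie above all week 2 plates (5.75 to 11.9).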

How the data were processed

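The authors deposited a table with 1 row per well, its plate, position, barcode, sequencing batch and listed number of cells, a total count and a number of genes. Both are whole-number counts made by the authors, unscaled. Per the file headers the first is named only as a total, so whether it counts reads or molecules is unknown. Polyadenylated RNA of sorted cells was barcoded, pooled and amplified by T7 transcription, per the labels' protocols. Per the submitters' processing notes, bcl2fastq 2.15.0.4 was run and the build was mm10. What aligned and counted the reads, and whether cells were filtered, is not given in the sources used here.

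Wells took their label from the plate: the amplification batch of a well, which sample titles also carry, gave its label. Of 20 labelled plates, 1 of week 2 was not analysed here. No pair of plates repeated the same totals. Plate percentiles were log2-transformed. Benjamini-Hochberg adjustment covered the 3 percentiles of genes, the 3 of the total, the 5 shares, the 5 bands and the 4 planned differences between diets, which were enumerated in full (88200 relabellings) in place of random draws. An adjusted p under 0.05 was a call. The SE pools the variance within batch and week. Shares of 380 wells had 95% Wilson half-widths of at most 5.00 points, which cover counting error only. No doublet or other filter on cells was applied. Wells could not be thinned to 1 depth, since no gene-level counts were used, and no gene or marker could be named.

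The wells, comparison and readouts were chosen with earlier results of these data known. Alternatives were other percentiles, handling of batch, transformation, filters on wells, ways of matching, each plate left out and same-numbered plates as pairs. Inner wells, dropping low positions, the covariate, shares, bands and the diet difference in width were added later. The test was checked on simulated plates. The software was pandas 2.3.3 and numpy 2.4.6 under Python 3.11.15, with scipy 1.17.1 for binomial intervals and rank correlations and matplotlib 3.10.9 for plots.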

Additional observations from a re-analysis of the deposited data

Results flagged for a closer look

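A plate standing apart from its week was looked for 30 times and found 4 times. Chance alone finds about 1 in 20 only where values follow a normal distribution, which was not checked. The flags on the week 2 plate 2.2 also came from the same wells. The 4 wells listed as empty on the week 2 plate 2.2 had a median of 643.5 genes, against 17.5 to 38 on the other 8 week 2 plates. Their median total was 41045, against 2625.5 to 20119.5. The empty wells of the week 8 plate 1.5 in SB18 had a median total of 20990, against 2593.5 to 8491 on the other 9 week 8 plates, with a median of 33.5 genes. The 90th percentile of the total on the week 2 plate 1.1 was 47011.7, below the 99422.4 to 151318 of the others.

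The week effect on the width of the genes distribution differed between diets by -1.27 on the log2 scale, as reported above. The causes of these values were not tested.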

How the results depend on the processing

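Fewer genes at the median and the 90th percentile kept their direction under every alternative run, and passed with each of the 11 plates left out, with log2 differences of -0.87 to -0.70 and -1.02 to -0.78. They did not pass in batch SB12 alone (-1.03 and -1.25), where 3 plates allow no p below 0.333. With the replicate block, the 5 pairs of same-numbered plates within a batch gave -0.79 and -0.90, where the smallest possible p is 0.0625. Between same-numbered plates, deviations of the wells correlated at -0.09 to 0.11, over 0.1 in 1 of 9 pairs. Of the 9 week 2 plates, 3 correlated best with their own number. Each well held a different cell, so such correlations cannot tell whether same-numbered plates shared an animal or a sort. The 10th percentile passed with all plates and no stratification (-0.85), in inner wells (-0.96) and with the replicate block over all 9 pairs (-0.84). It passed without the week 2 plate 2.2 (-0.94, range over single plates left out -1.01 to -0.58). In wells with at least 100 genes it passed (-0.52), but that filter cuts the poor end itself and kept 89.0% of wells at week 2 and 77.0% at week 8. The 25th percentile in its place passed (-0.89) and the 5th did not (-0.52). The 10th percentile did not pass in SB16 alone (-1.01), in SB12 alone (-0.02) or over the 5 pairs within a batch (-0.86), and the last 2 settings allow no pass. The width reversed to 0.23 in SB16 alone, 0.018 without the week 2 plate 2.2 and 0.090 as the 75th over the 25th percentile, and ranged from -0.31 to 0.23 over single plates left out. Genes at matched total passed in wells of middle total (-0.62) and without the week 8 plate 2.1 (range -0.66 to -0.32). With the covariate, which was added after the plate values had been seen, they passed as well (-0.73). The median total passed with none of the 11 plates left out, at -0.61 to -0.21. The difference between diets in width did not pass in SB16 alone (-0.96). In SB12 alone it was -2.15 (permutation test of the diet labels, p = 0.0556), where that p is the smallest possible and no result could pass. It shrank to -0.45 in wells with at least 100 genes and to -0.69 as the 75th over the 25th percentile (same test, p = 0.0357 and 0.00332). The p-values of these alternatives were not adjusted over the 5 differences between diets. Over the 23 plates, each left out once, the difference ranged from -1.41 to -0.96. The causes of these changes were not tested.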

Other observations

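The outer wells of the plates, in rows A and P and columns 1 and 24, were compared with the inner wells after a difference had been noticed in the same plates, so the p-values here are no independent evidence. Over all plates the outer wells had a median of 112 to 596 genes at week 2 and 187 to 285 at week 8, against 334 to 615 and 139 to 381 in the inner wells. The log2 ratio of outer to inner wells averaged -0.54 ± 0.58 at week 2 and 0.11 ± 0.40 at week 8 (SD over 9 and 10 plates). Within SB12 and SB16 the difference was 0.56 ± 0.22 SE and did not pass (exact permutation test, adjusted p = 0.208 over 5 measures), at 1.83 in SB12, which held 1 week 2 plate, and 0.08 in SB16. Without regard to batch, which cannot be told apart from week on 8 of the 19 plates, it was 0.65 ± 0.23 SE (permutation test over all 92378 relabellings, adjusted p = 0.0478). On MCDD it was -0.10 ± 0.44 SE (exact permutation test, adjusted p = 0.895).

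The single richest well of a plate had 2189 to 4183 genes at week 2 and 1065 to 2632 at week 8. The slope of genes on the total within a plate was 0.72 ± 0.05 at week 2 and 0.70 ± 0.05 at week 8 on log2 scales (SD, n = 9 and 10 plates), and within SB12 and SB16 it differed by -0.02 ± 0.04 SE (exact permutation test, p = 0.524). Over all plates the median number of genes per 1000 of the total was 8.46 to 33.3 at week 2 and 3.99 to 21.3 at week 8. In each week the highest plate was the one with the lowest median total. Within SB12 and SB16 the log2 difference was -0.53 ± 0.37 SE and did not pass (exact permutation test, adjusted p = 0.208 over 5 measures).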
